A study of Mus musculus with 8 samples.

Results

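The inflammasome genes described here are 9 genes, taken by symbol from the 39179 gene identifiers in the expression files of the study. They are the sensors Nlrp3, Nlrc4 and Aim2, the adaptor Pycard, the caspases Casp1 and Casp4, the pore-forming Gsdmd and the cytokines Il1b and Il18. The genes were chosen with their values in these libraries known, so their values in this comparison are given as a description, without a test. The study compared common lymphoid progenitors (CLPs), the precursors of B, T and natural killer cells in bone marrow, before and after long-term culture. All 8 libraries came from bone marrow of C57BL/6 mice, with no mutation or transgene named. The 4 ex vivo CLP libraries were made from freshly isolated cells. The 4 cCLP libraries were made from CLPs grown for 2 months on OP9, a mouse stromal cell line, with Flt3L, the ligand of Flk2, and a small amount of IL-7. Sorted cells of both groups were lineage-negative and positive for Flk2 (the product of Flt3), IL-7 receptor and CD27, and negative for Ly6d. The labels give neither age nor sex, and do not say whether libraries came from separate animals or cultures, so spread and p-values measure only the variation between these libraries.

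Inflammasomes are protein complexes that assemble in the cytosol when a sensor detects microbial products or cell damage. Most sensors recruit the adaptor ASC, encoded by Pycard, which brings caspase-1 molecules together so that they activate each other. Caspase-1 then matures interleukin-1β and interleukin-18 and cleaves gasdermin D, whose fragments form pores in the plasma membrane, while caspase-4 (also called caspase-11 in the mouse) senses bacterial lipopolysaccharide and cleaves gasdermin D directly. The pathway is best known in macrophages, monocytes, neutrophils and dendritic cells.

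A pair of libraries went against their labels across the transcriptome. The library labelled ex vivo CLP 2 had Spearman correlations across genes of 0.981 to 0.989 with cCLP 2, 3 and 4, and of 0.87 to 0.898 with ex vivo CLP 1, 3 and 4. The library labelled cCLP 1 correlated at 0.973 to 0.985 with ex vivo CLP 1, 3 and 4, and at 0.891 to 0.895 with cCLP 2, 3 and 4. Each result is therefore given over the 8 libraries as labelled, and again over 6 libraries, ex vivo CLP 1, 3 and 4 against cCLP 2, 3 and 4. These 6 were chosen from where the profiles lie, and no library was moved to the other group. The values are whole numbers on a scale that no label names, with sums from 378594 to 704305 per library. They cannot be read as counts, so the depth is unknown, and "listed at 0" means only that the file gives 0 for a gene. Scaled values are deposited values divided by a factor for each library. Differences between libraries were taken within a gene, because no label states whether values are per gene length. Sums over marker genes, the filter on low values and the choice of the highest uncalled genes use values of different genes without a correction for length.

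Transcripts of the genes used for the positive sort were above 0 in every library. For Flt3 the ex vivo CLP libraries gave 171 to 288 and the cCLP libraries 227 to 333, and for Cd27 they gave 56 to 113 and 68 to 105. Il7r was listed at 61, 193, 14 and 24 for ex vivo CLP 1 to 4 and at 28, 213, 204 and 256 for cCLP 1 to 4. Ly6d, whose protein the sort excluded, was listed at 28, 0, 28 and 41 for ex vivo CLP 1 to 4 and at 22, 1, 1 and 1 for cCLP 1 to 4. Of the stromal markers, which OP9 cells could contribute, 8 of 9, Col1a1 and Col1a2 among them, were listed at 0 in every library. The remaining marker, Pdgfrb, was above 0 in every library, at 11, 3, 5 and 11 for ex vivo CLP 1 to 4 and at 12, 6, 3 and 7 for cCLP 1 to 4.

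As labelled, all 9 inflammasome genes had a lower mean in cCLP than in ex vivo CLP, but the groups overlapped for 8 of them. Aim2 was the 1 gene whose groups did not overlap as labelled, and across the 6486 genes tested 1.60% were lower and 1.77% higher in cCLP without overlap. Over the 6 libraries, all 9 genes were lower in each cCLP library than in every ex vivo CLP library, against 28.2% of the 6573 genes tested. That share covers only genes that passed the filter on low values, which 4 of the 9 did. With library factors from the totals the count was 8, and with no factors 7. Since the genes were chosen on this contrast, nothing is read from that count. The 9 genes divided by how low they went in cCLP 2, 3 and 4. Casp1, Casp4, Nlrc4 and Il1b were listed at 0 in each of these libraries, and Nlrp3 and Il18 were listed at 1 or 0. Pycard, Aim2 and Gsdmd stayed well above 0 in all 8 libraries. Of 11460 genes above 0 in each of ex vivo CLP 1, 3 and 4, 733 (6.40%) were listed at 0 in each of cCLP 2, 3 and 4. Only Casp1, Pycard, Aim2 and Gsdmd passed the filter on low values, and the other 5 genes are described from low values. In bulk libraries such as these, fewer cells of a type and less RNA per cell cannot be told apart.

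**Figure D1:**
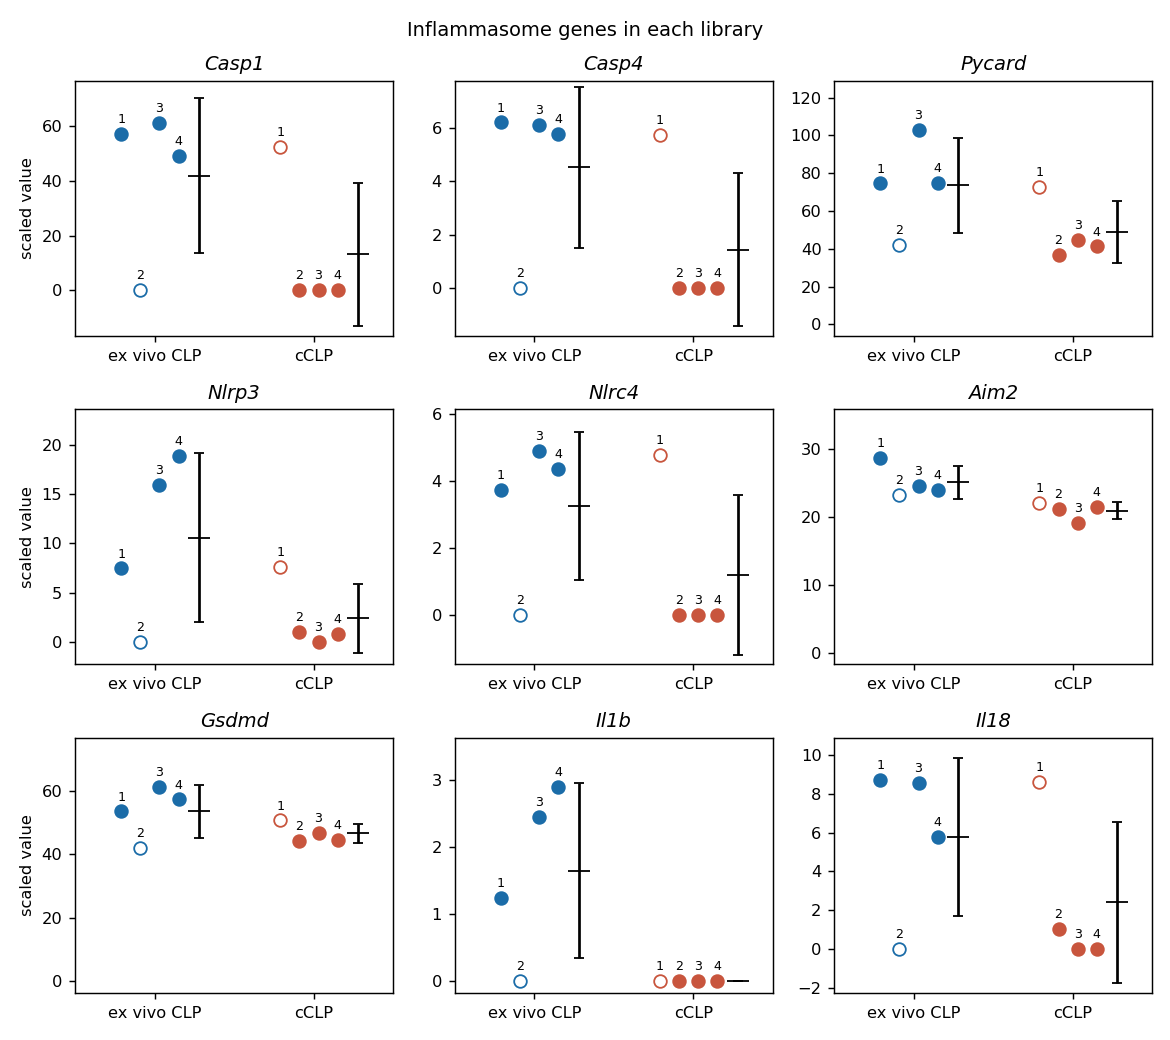
Scaled value of each of the 9 inflammasome genes by labelled group. Points are libraries with their replicate numbers, open symbols are ex vivo CLP 2 and cCLP 1, and bars give the mean and SD of the 4 libraries of a group. For Casp1 the single cCLP library above 0 is cCLP 1, and the single ex vivo CLP library at 0 is ex vivo CLP 2.

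Casp1 encodes the protease at the centre of the pathway (ENSMUSG00000025888, chromosome 9, 5298517 to 5307265, plus strand, GRCm38). The deposited values of ex vivo CLP 1 to 4 were 46, 0, 50 and 68, and those of cCLP 1 to 4 were 55, 0, 0 and 0. Casp1 was therefore high in 3 ex vivo CLP libraries and in cCLP 1, at 0 in the remaining 4, and overlapping between the labelled groups. As labelled, the ex vivo CLP mean was 41.9 ± 28.4 (SD, n = 4) and the cCLP mean 13.1 ± 26.3 (SD, n = 4), both scaled. On the log2(scaled value + 1) scale the difference, cCLP minus ex vivo CLP, was -2.93 ± 2.05 (SE). Without the pair that went against their labels, the ex vivo CLP mean for Casp1 was 55.9 ± 6.11 (SD, n = 3), and no fold is given against a group listed at 0.

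Casp4 encodes the lipopolysaccharide-sensing caspase (ENSMUSG00000033538, chromosome 9, 5308828 to 5336783, plus strand). It followed the same division at a low level, with 5, 0, 5 and 8 for ex vivo CLP 1 to 4 and 6, 0, 0 and 0 for cCLP 1 to 4. The libraries above 0 were the same 4 as for Casp1. In those 3 ex vivo CLP libraries the scaled value of Casp4 was 6.05 ± 0.221 (SD, n = 3), and as labelled the difference was -1.43 ± 0.98 (SE) on the log2(scaled value + 1) scale.

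Casp1 and Casp4 lie next to each other on chromosome 9, 1.6 kb apart on the same strand, and the next protein-coding gene along, 8.6 kb beyond Casp4, is Casp12, a relative of Casp4. Casp12 was listed at 3, 0, 4 and 4 for ex vivo CLP 1 to 4 and at 3, 0, 0 and 0 for cCLP 1 to 4. All 3 caspases of the cluster were thus above 0 in the same 4 libraries and at 0 in the same 4. Gria4 and Pdgfd, the protein-coding genes nearest to the cluster on either side, were listed at 0 in all 8 libraries. The closest neighbour on the Casp1 side with signal, Msantd4, lay 911.6 kb from Casp1 and was listed at 12 to 27 in every library.

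The bases before the start sites of Casp1 and Casp4 are shown because the pair was listed at 0 in the same libraries. Each run holds 250 bases from RefSeq (GRCm38.p6), 5′ to 3′ on the strand of the gene, Casp1 at chr9:5298267-5298516 and Casp4, the first of 2 listed starts, at chr9:5308599-5308848. Capitals would mark the motifs named below, and neither run has any. The Casp4 run ends past the start of the gene as positioned above (5308828), because the RefSeq start used here differs.
Casp1: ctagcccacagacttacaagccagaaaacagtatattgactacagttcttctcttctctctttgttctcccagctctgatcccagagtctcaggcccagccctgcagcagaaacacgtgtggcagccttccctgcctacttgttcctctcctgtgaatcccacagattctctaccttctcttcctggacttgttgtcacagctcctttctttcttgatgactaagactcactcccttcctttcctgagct
Casp4: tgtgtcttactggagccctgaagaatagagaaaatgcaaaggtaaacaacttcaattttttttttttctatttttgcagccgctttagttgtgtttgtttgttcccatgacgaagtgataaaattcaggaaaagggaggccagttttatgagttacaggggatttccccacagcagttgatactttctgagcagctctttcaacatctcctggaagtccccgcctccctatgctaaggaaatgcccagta

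Pycard encodes the adaptor ASC (ENSMUSG00000030793, chromosome 7, 127989708 to 127993867, minus strand). Ex vivo CLP 1 to 4 held 60, 38, 84 and 103, and cCLP 1 to 4 held 76, 35, 47 and 48. Scaled values lay at 72.6 to 103 in ex vivo CLP 1, 3 and 4 and cCLP 1, and at 36.9 to 44.7 in ex vivo CLP 2 and cCLP 2, 3 and 4, so the labelled groups overlapped. As labelled the means were 73.5 ± 25.0 and 48.9 ± 16.2 (SD, n = 4 each), a difference of -0.56 ± 0.34 (SE) on the log2(scaled value + 1) scale. Within the 6 libraries they were 84.1 ± 16.4 and 40.9 ± 3.93 (SD, n = 3 each), a difference of -1.01 ± 0.17 (SE) and a ratio of means of 0.487. The adaptor transcript thus stayed present in the libraries in which Casp1 was listed at 0.

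Nlrp3 encodes the sensor that responds to potassium loss and many forms of cell damage (ENSMUSG00000032691, chromosome 11, 59541568 to 59566956, plus strand). Its deposited values were 6, 0, 13 and 26 for ex vivo CLP 1 to 4 and 8, 1, 0 and 1 for cCLP 1 to 4. Among the libraries above 1, ex vivo CLP 3 and 4 were higher than ex vivo CLP 1 and cCLP 1, with scaled values of 15.9 and 18.8 against 7.46 and 7.64. The labelled groups overlapped, with means of 10.6 ± 8.54 and 2.39 ± 3.53 (SD, n = 4 each). The 6-library means of Nlrp3 were 14.1 ± 5.91 and 0.637 ± 0.561 (SD, n = 3 each), a difference of -3.18 ± 0.50 (SE) on the log2(scaled value + 1) scale.

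Nlrc4 encodes the partner of the NAIP proteins, which bind bacterial flagellin and secretion system proteins (ENSMUSG00000039193, chromosome 17, 74425438 to 74459142, minus strand). It was listed at 3, 0, 4 and 6 for ex vivo CLP 1 to 4 and at 5, 0, 0 and 0 for cCLP 1 to 4, in the same 4 libraries as Casp1. Its scaled value in ex vivo CLP 1, 3 and 4 was 4.33 ± 0.587 (SD, n = 3), close to the 4.78 of cCLP 1. The NAIP genes also had low values, with Naip5 at 6, 0, 6 and 10 and at 7, 0, 1 and 0, and Naip2 at 2, 0, 5 and 7 and at 3, 0, 0 and 0, in the same library order. Naip6 was listed at 2, 0, 3 and 4 and at 2, 0, 0 and 0, and Naip1 at 0 in every library. The NAIP genes are near-identical copies between which reads can be split, so their single values are uncertain. Genes beside Nlrc4 kept their signal, as Slc30a6, 1.2 kb away, was listed at 6 to 15 and Yipf4 at 24 to 44 across all 8 libraries.

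Aim2 encodes the sensor of double-stranded DNA in the cytosol (ENSMUSG00000037860, chromosome 1, 173350879 to 173466040, plus strand). It was listed at 23, 21, 20 and 33 for ex vivo CLP 1 to 4 and at 23, 20, 20 and 25 for cCLP 1 to 4. After scaling, the ex vivo CLP libraries gave 28.6, 23.1, 24.5 and 23.9 and the cCLP libraries 22.0, 21.1, 19.0 and 21.5. The groups lay side by side without overlap, 23.1 being the lowest of ex vivo CLP and 22.0 the highest of cCLP. This gap depended on the scaling, and with library factors from the totals (22.6 against 22.9) or with no factors (20 against 25) the groups overlapped. The means as labelled were 25.0 ± 2.44 and 20.9 ± 1.28 (SD, n = 4 each), a ratio of 0.834 and a difference of -0.25 ± 0.08 (SE) on the log2(scaled value + 1) scale. The 6-library ratio for Aim2 was 0.799. In ex vivo CLP 2 and cCLP 2, 3 and 4, in which Nlrp3 and Nlrc4 were listed at 1 or 0, Aim2 stood at 80.9%, 73.7%, 66.6% and 75% of its highest library.

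The bases before the start sites of Pycard, Nlrc4 and Aim2 are shown because, of the members, they are the 3 in which any of the 4 motifs searched for was found. The sources are as above, with Pycard at chr7:127993868-127994117 (minus strand), Nlrc4 at chr17:74459109-74459358 (minus strand) and Aim2 at chr1:173420354-173420603 (plus strand). The Aim2 window lies inside the gene as positioned above (173350879 to 173466040). The RefSeq start used here differs from the start of those positions. The Nlrc4 window also reaches into its gene as positioned above, past 74459142. Its last ACTTCCT lies inside that gene, and its TTAAGCAA crosses the limit. Capitals mark AGGAAGT, a core bound by PU.1 and other ETS factors, and TTGCNNAA, a core bound by C/EBP factors, on either strand (ACTTCCT and TTNNGCAA on the other).
Pycard: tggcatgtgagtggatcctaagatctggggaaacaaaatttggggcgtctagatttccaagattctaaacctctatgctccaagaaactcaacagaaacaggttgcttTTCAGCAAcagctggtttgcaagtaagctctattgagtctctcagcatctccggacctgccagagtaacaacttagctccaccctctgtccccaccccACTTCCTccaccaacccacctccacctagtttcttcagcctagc
Nlrc4: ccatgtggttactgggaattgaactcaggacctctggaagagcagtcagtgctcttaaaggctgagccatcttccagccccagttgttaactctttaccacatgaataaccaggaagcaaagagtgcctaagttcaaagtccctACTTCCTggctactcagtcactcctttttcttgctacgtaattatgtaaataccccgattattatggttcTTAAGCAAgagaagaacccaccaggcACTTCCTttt
Aim2: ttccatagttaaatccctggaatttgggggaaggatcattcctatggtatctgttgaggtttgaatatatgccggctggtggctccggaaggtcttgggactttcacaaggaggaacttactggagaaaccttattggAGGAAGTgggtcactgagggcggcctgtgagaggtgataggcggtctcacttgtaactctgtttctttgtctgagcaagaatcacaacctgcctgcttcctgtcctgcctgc
AGGAAGT was found before 3 of the 8 members with an entry (Pycard, Nlrc4 and Aim2) and before 7.69% of 32851 promoters of the same length. TTGCNNAA was found before 2 of the 8 (Pycard and Nlrc4) and before 9.56% of promoters. The doubled GAAA core bound by interferon regulatory factors (2.98% of promoters) and TTCNNNGAA, a core bound by STAT factors (7.02%), were found before 0 of the 8. Casp12, no member but the third caspase of the cluster, had TTGCNNAA and 2 matches to TTCNNNGAA. No marked motif overlaps another in the runs shown. These are matches of letters in the windows read, and their use by any factor was not tested. The table has no entry for Gsdmd.

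Gsdmd encodes gasdermin D, the substrate whose fragments form the membrane pore (ENSMUSG00000022575, chromosome 15, 75862327 to 75867408, plus strand). Every library held signal, with 43, 38, 50 and 79 for ex vivo CLP 1 to 4 and 53, 42, 49 and 52 for cCLP 1 to 4. Scaled values reached from 41.9 in ex vivo CLP 2 to 61.3 in ex vivo CLP 3, and the labelled groups overlapped. The means as labelled were 53.5 ± 8.37 and 46.5 ± 2.92 (SD, n = 4 each), a difference of -0.18 ± 0.125 (SE) on the log2(scaled value + 1) scale. Over the 6 libraries they were 57.3 ± 3.92 and 45.2 ± 1.29 (SD, n = 3 each), a ratio of means of 0.788. With no library factors the 6 libraries overlapped too, with 43 as the lowest of ex vivo CLP and 52 as the highest of cCLP.

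Il18 encodes a cytokine that caspase-1 matures (ENSMUSG00000039217, chromosome 9, 50554827 to 50581840, plus strand). It was listed at 7, 0, 7 and 8 for ex vivo CLP 1 to 4 and at 9, 1, 0 and 0 for cCLP 1 to 4. The highest deposited value of Il18 was thus that of cCLP 1, and the labelled groups overlapped. The 6-library means of Il18 were 7.69 ± 1.64 and 0.351 ± 0.609 (SD, n = 3 each), a difference of -2.755 ± 0.385 (SE) on the log2(scaled value + 1) scale. Il1b encodes interleukin-1β (ENSMUSG00000027398, chromosome 2, 129364570 to 129371139, minus strand). It was listed at 1, 0, 2 and 4 for ex vivo CLP 1 to 4 and at 0 in all 4 cCLP libraries. Il1b was the 1 member at 0 in cCLP 1 as well, and at these values its mean as labelled, 1.65 ± 1.30 (SD, n = 4) in ex vivo CLP, overlapped with 0. Reads of Il18 and Il1b could be shared with overlapping genes, since the strand setting of the counting is not given in the sources used here. Bco2, which overlaps Il18 on the opposite strand, was listed at 2 or less, and Tex12 (over Il18), Il1bos (over Il1b) and Cadm3 (over Aim2) were listed at 0 in every library.

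**Figure D2:**
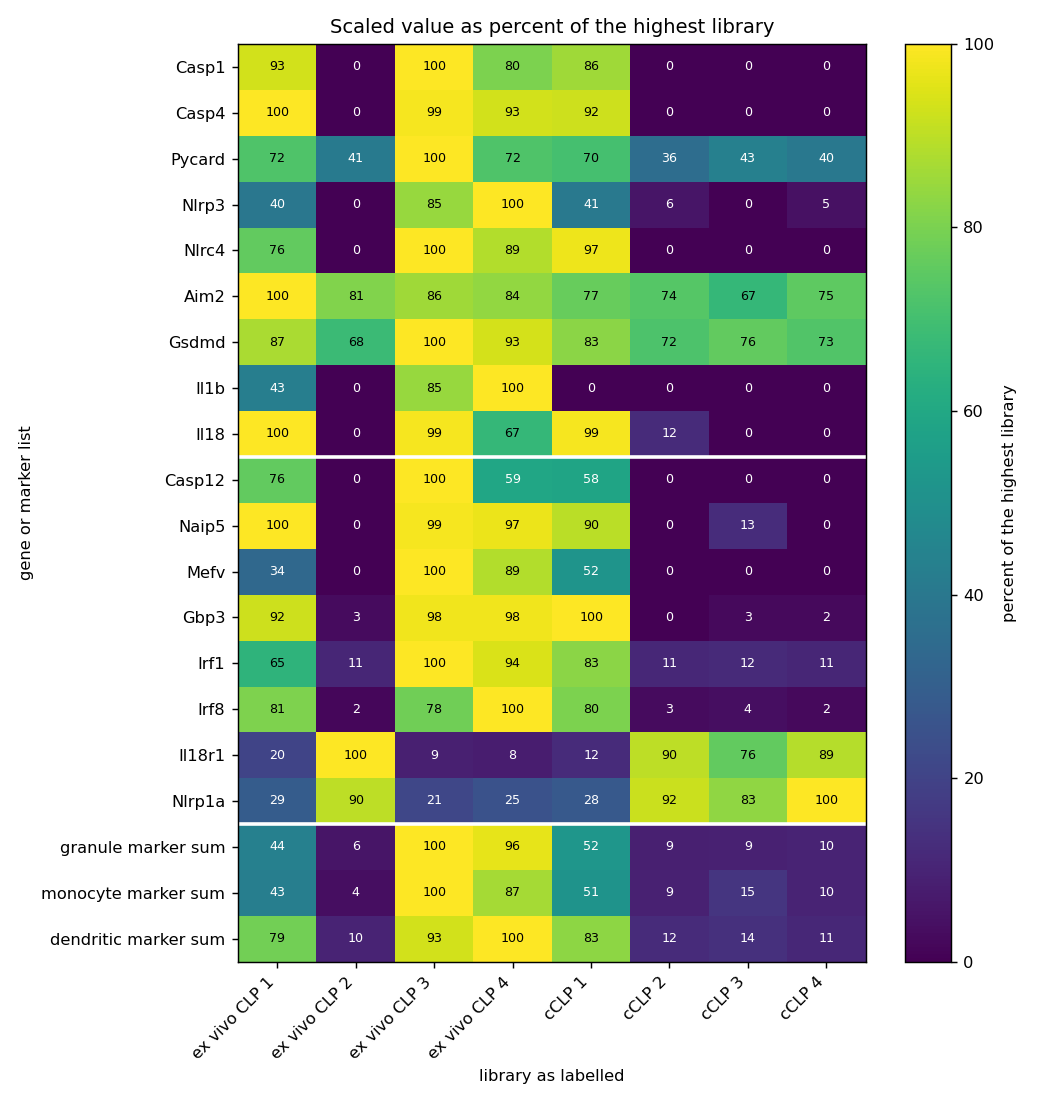
Scaled value as a percentage of the highest library, for the 9 inflammasome genes, other genes of the pathway chosen after their values were seen, and summed cell type markers, by library. Casp1 in cCLP 1 stands at 85.7% of its highest library, whereas Nlrp3 stands at 40.6%. Il1b, listed at 4 or less in every library, stands at 0 in cCLP 1.

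The members at or near 0 in cCLP 2, 3 and 4 did not share 1 pattern among the libraries where they were above 0. Casp1 in ex vivo CLP 1, 3 and 4 and cCLP 1 lay at 93.3%, 100%, 80.4% and 85.7% of its highest scaled value. Nlrp3 lay at 39.6%, 84.6%, 100% and 40.6%, and Il1b at 42.9%, 84.6%, 100% and 0% in the same order. Casp1 was thus nearly level over these libraries, while Nlrp3 was lower in ex vivo CLP 1 and cCLP 1 than in ex vivo CLP 3 and 4. The deposited values behind these percentages were 6, 13, 26 and 8 for Nlrp3. For Il1b they were only 1, 2, 4 and 0, too low to read a pattern from. In the same library order, the summed scaled value of 12 neutrophil and granule markers was at 43.7%, 100%, 96.2% and 52.4%. That of 12 monocyte and macrophage markers was at 42.8%, 100%, 86.7% and 51.2%, and that of 10 dendritic cell markers at 78.5%, 93.0%, 100% and 82.8%. The erythroid sum was 8.70, 42.9, 34.05 and 13.37, so lower values in ex vivo CLP 1 and cCLP 1 were not particular to granule markers. The granule markers were not alike, as 8 of the 12 were lower in ex vivo CLP 1 than in both ex vivo CLP 3 and 4, Mpo, Elane, Prtn3 and Ctsg among them, and 4 were not (S100a8, S100a9, Camp and Ly6g).

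Summed markers of several cell types, myeloid and other, moved with the same libraries. The 12 neutrophil and granule markers summed to 1264 to 2895 in ex vivo CLP 1, 3 and 4 and to 259 to 292 in cCLP 2, 3 and 4. The sum was 1516 for the library cCLP 1 and 159.7 for the library ex vivo CLP 2. All 12 were lower in cCLP without overlap over the 6 libraries, and 10 of them were listed at 0 in each of cCLP 2, 3 and 4. The sum left in these libraries was nearly all Mpo, listed there at 245, 284 and 339, while Prtn3 was listed at 1 in each. Elane, which encodes neutrophil elastase, was listed at 9, 0, 315 and 526 for ex vivo CLP 1 to 4 and at 40, 0, 0 and 0 for cCLP 1 to 4. The 12 monocyte and macrophage markers summed to 306 to 715 in ex vivo CLP 1, 3 and 4 and to 64.3 to 109.5 in cCLP 2, 3 and 4, where 5 of them were listed at 0. Of these 12, 8 were lower and 1 higher in cCLP without overlap over the 6 libraries. The 10 dendritic cell markers, which include Irf8, summed to 457.5 to 582.5 in ex vivo CLP 1, 3 and 4 and to 65.2 to 80.9 in cCLP 2, 3 and 4, where 4 were listed at 0. The 6 T and natural killer markers summed to 47.2 to 64.5 in ex vivo CLP 1, 3 and 4 and to 4.29 to 12.4 in cCLP 2, 3 and 4. This sum was mostly Nkg7, listed at 36, 2, 39 and 85 for ex vivo CLP 1 to 4 and at 53, 4, 12 and 5 for cCLP 1 to 4. Cd4, Klrb1c and Gzmb were listed at 2 or less, and Cd3e and Cd8a at 0 in every library. The 7 erythroid markers summed to 8.70 to 42.9 in ex vivo CLP 1, 3 and 4 and to 4.29 to 7.62 in cCLP 2, 3 and 4. The 6 B lineage markers, with the opposite direction, summed to 2.90 to 3.73 and to 13.3 to 24.0 in the same order. Ex vivo CLP 2 and cCLP 1 lay with the other labelled group in each of these sums. The part of such cells in the values of the inflammasome genes was not tested.

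**Figure D3:**
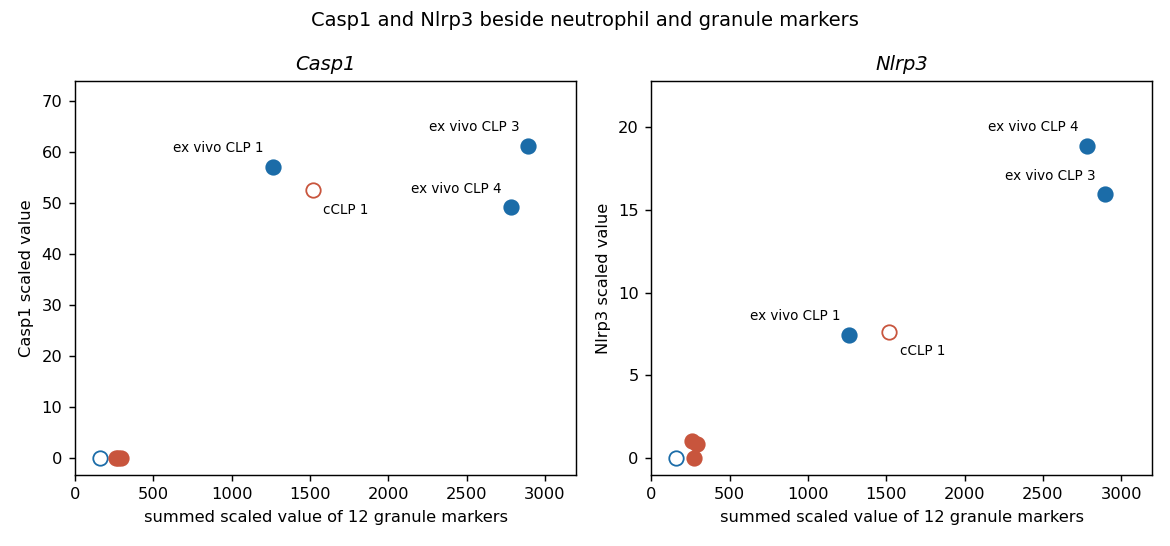
Scaled value of Casp1 (left) and Nlrp3 (right) against the summed scaled value of 12 neutrophil and granule markers, 1 point per library, with blue for ex vivo CLP, red for cCLP and open symbols for ex vivo CLP 2 and cCLP 1. Casp1 lies at 49.3 to 61.3 in the 4 libraries with marker sums of 1264 to 2895, while Nlrp3 lies at 7.46 and 7.64 in the lower 2 of them and at 15.9 and 18.8 in the upper 2.

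The genes with profiles most like those of the 4 members that passed the filter were ranked by the Pearson correlation of log2(scaled value + 1) over the 8 libraries, among 6419 genes. Because the libraries fall into 2 sets, these correlations mostly reflect that division, and no p-value is given. Casp1 was closest to Klk8 (r = 1.0), Rangrf (0.9998) and Stat4 (0.9997). Klk8 was listed at 29, 0, 30 and 42 for ex vivo CLP 1 to 4 and at 34, 0, 0 and 0 for cCLP 1 to 4, above 0 in the same libraries as Casp1. Pycard was closest to Rfc2 (r = 0.9961), Gins1 (0.9926) and Saraf (0.9915). Gsdmd was closest to Tcirg1 (r = 0.9788), Zfp800 (0.9776) and Adap1 (0.9764), and Aim2 to Pisd (0.9561), 1600020E01Rik (0.9485) and Nudt16 (0.9455).

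A list of 56 other genes of the pathway was compared in the same way, of which 54 were found in the files, 12 were listed at 0 in every library and 26 passed the filter. Over the 8 libraries as labelled, limma called 0 of the 26 at an adjusted p below 0.05, as it called 0 of all 6486 genes tested. At an unadjusted p below 0.05, 1 of the 26 (Irf2) and 475 of the 6486 (7.32%) passed. Over the 6 libraries, 7 of the 26 were called higher and 11 lower in cCLP, against 20.6% higher and 22.0% lower among the 6573 genes tested. At an unadjusted p below 0.05, 19 of the 26 and 50.2% of the 6573 passed. The median difference of the 26 was -0.19 on the log2(scaled value + 1) scale, and that of all genes tested was 0.005. Of the 18 called genes, 5 lower (Irf8, Gbp2, Gbp3, Gbp7 and Trim30a) and 1 higher (Nlrp1a) were below the filter value of 10 in every library of the lower group, so that the filter itself fixed their direction. The other 12 were 6 higher and 6 lower. Among these, Il18r1 reached 10 in ex vivo CLP 1 alone of its lower group and Irf2 in ex vivo CLP 4 alone, so both passed the filter mainly through cCLP. The count of 7 higher depended on single libraries, and leaving out ex vivo CLP 3 made it 4, leaving out ex vivo CLP 4 made it 5, and leaving out any 1 of cCLP 2, 3 and 4 made it 4. It was also 4 (with 9 lower) when library factors came from the totals. With no library factors, 3 of the list were higher and 5 lower, and of all genes 479 were higher and 438 lower. With factors from the totals the calls of Dpp8, Dpp9, Ripk3, Irf2 and Cflar, described below, ended. With no factors the calls of these genes and of Ninj1, Txnip, Serpinb1a and Gbp7 ended. Adjusted p-values below are from limma with Benjamini-Hochberg adjustment over the 6-library comparison. Means are given ± SD of 3 libraries per group, and differences ± SE on the log2(scaled value + 1) scale. Leaving out the pair that went against their labels lowers the spread within groups, so these p-values are too small to be taken at face value. The list was also chosen with earlier results known, so they describe only these 6 libraries.

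**Figure D4:**
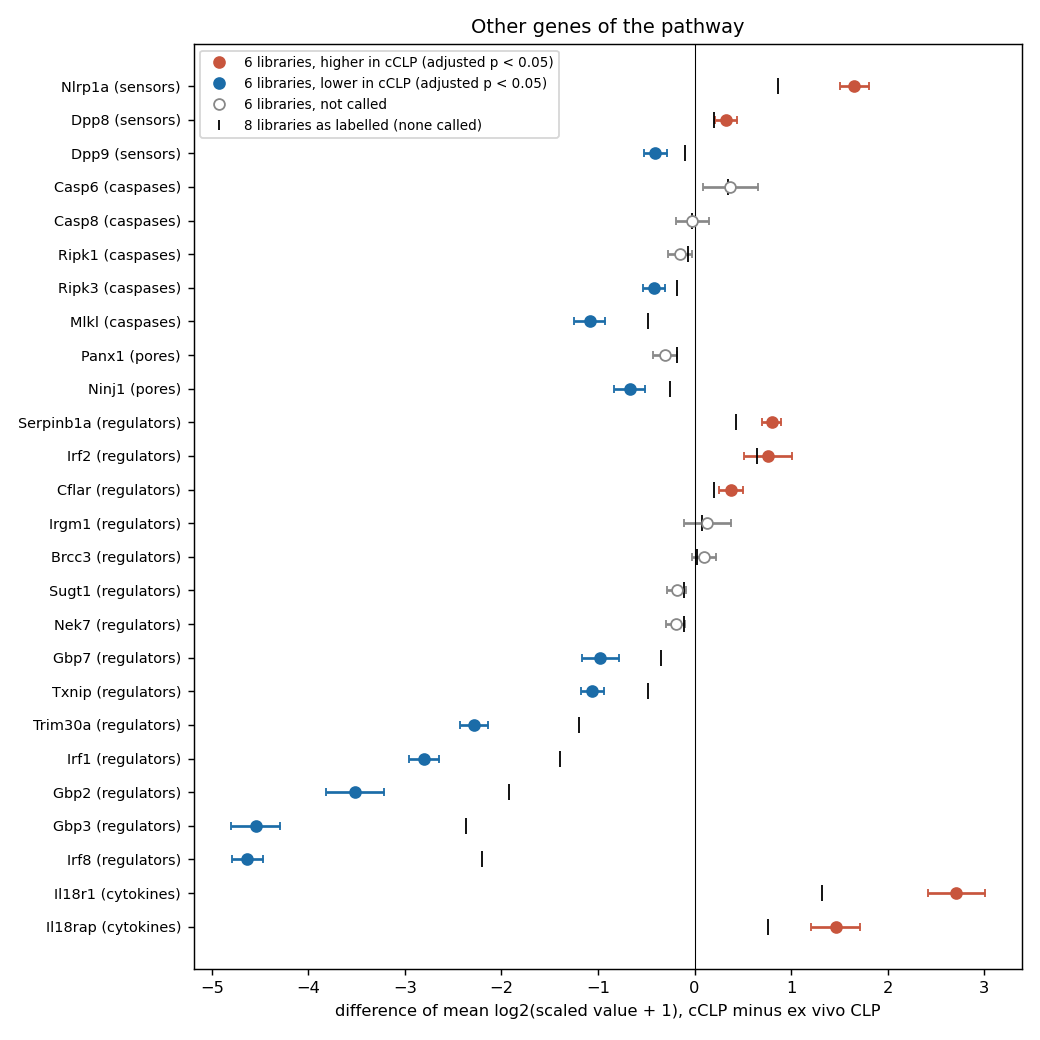
Difference in log2(scaled value + 1), cCLP minus ex vivo CLP, for the 26 pathway genes tested, with points and bars of 1 SE for the 6 libraries (red higher, blue lower, open grey not called) and ticks for the 8 libraries as labelled. Over the 6 libraries the differences span from -4.63 for Irf8 to 2.71 for Il18r1, and over the 8 libraries none was called.

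Among the regulators, 7 of 14 tested were lower (Irf8, Irf1, Gbp2, Gbp3, Gbp7, Trim30a and Txnip) and 3 higher (Serpinb1a, Irf2 and Cflar). Irf8, a transcription factor of myeloid and dendritic development, was listed at 118, 3, 116 and 251 for ex vivo CLP 1 to 4 and at 153, 5, 7 and 5 for cCLP 1 to 4. Irf1, an interferon-induced transcription factor, was listed at 54, 10, 84 and 134 and at 89, 11, 13 and 13. Its 6-library means were 89.1 ± 19.2 and 11.7 ± 0.619, a difference of -2.80 ± 0.16 (adjusted p = 2.43e-06, against 0.488 over the 8 libraries as labelled). Both factors were high in the same 4 libraries as Casp1. The guanylate-binding proteins, interferon-induced GTPases that act on bacteria in the cytosol, were lower too. For these genes the filter fixed the direction, so no p-value is given. Gbp3 was listed at 27, 1, 29 and 49 for ex vivo CLP 1 to 4 and at 38, 0, 1 and 1 for cCLP 1 to 4, and over the 6 libraries Gbp2 differed by -3.52 ± 0.30 and Gbp7 by -0.98 ± 0.19. These are close paralogs, and reads may be split between them. Trim30a, an interferon-induced member of the TRIM family, stood at 45.5 ± 7.33 and 8.49 ± 1.07, and here too the filter fixed the direction.

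Txnip, which encodes a thioredoxin-binding protein that can bind NLRP3, fell from 150.3 ± 11.7 to 71.8 ± 8.46 (difference -1.06 ± 0.12, adjusted p = 0.000171, or 0.0507 with no library factors). Serpinb1a, which encodes an inhibitor of neutrophil proteases and of inflammatory caspases, rose from 138 ± 2.24 to 241 ± 16.5 (difference 0.80 ± 0.10, adjusted p = 0.000334, or 0.0669 with no library factors). The inhibitor was thus higher in the libraries in which Casp1 was listed at 0. Irf2, a factor that binds the same sites as Irf1, differed by 0.76 ± 0.25 (adjusted p = 0.0404), and Cflar, an inhibitor of caspase-8, by 0.37 ± 0.13 (adjusted p = 0.0412). Because Irf2 passed the filter mainly through cCLP, its direction was largely set by the filter. The Irf2 call ended without ex vivo CLP 1 (adjusted p = 0.0995) or 3 (0.0897) and without cCLP 2 (0.135), 3 (0.0717) or 4 (0.0699). The Cflar call ended without ex vivo CLP 3 (adjusted p = 0.0949) or 4 (0.0983) and without cCLP 2 (0.136), 3 (0.0764) or 4 (0.125). The highest-valued regulator that was not called, Sugt1, stood at 40.2 ± 2.37 and 35.3 ± 2.32 (adjusted p = 0.174).

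Among caspases and other genes of cell death, 2 of 5 tested were lower and 0 higher. Mlkl, which encodes the pore-forming protein of necroptosis, fell from 30.5 ± 5.37 to 13.8 ± 2.30 (difference -1.085 ± 0.161, adjusted p = 0.000874). Ripk3, the kinase that activates it, fell from 47.2 ± 5.29 to 34.9 ± 2.63 (adjusted p = 0.0173). The Ripk3 call ended without cCLP 3 (adjusted p = 0.07) or 4 (0.0678). Casp8, which starts apoptosis at death receptors, stood at 79.6 ± 18.0 and 77.7 ± 12.1 (adjusted p = 0.934).

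Among other sensors and their inhibitors, 2 of 3 tested were higher and 1 lower. Nlrp1a, a sensor activated by proteolysis, was listed at 4, 14, 3 and 6 for ex vivo CLP 1 to 4 and at 5, 15, 15 and 20 for cCLP 1 to 4. It was higher in ex vivo CLP 2 and in cCLP 2, 3 and 4, the libraries in which Casp1 was at 0, and its 6-library difference was 1.655 ± 0.151. It passed the filter only through cCLP, which fixed that direction, so no p-value is given. Its paralog Nlrp1b was listed at 1 or 0 in every library, and reads of the pair may be split. Dpp8 and Dpp9 encode peptidases that restrain NLRP1. Dpp8 differed by 0.33 ± 0.11 (adjusted p = 0.0428) and Dpp9 by -0.405 ± 0.122 (adjusted p = 0.0271). The Dpp8 call ended without ex vivo CLP 3 (adjusted p = 0.106) or 4 (0.0772) and without cCLP 2 (0.101), 3 (0.0783) or 4 (0.141). The Dpp9 call ended without ex vivo CLP 4 (adjusted p = 0.0797) and without cCLP 3 (0.0881) or 4 (0.0942). Mefv, which encodes the sensor pyrin, was too low to test, at 2, 0, 6 and 9 for ex vivo CLP 1 to 4 and at 4, 0, 0 and 0 for cCLP 1 to 4. Nlrp6 and Nlrp12 were listed at 0 in every library.

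Other genes of pore formation gave little signal, as 7 of the 11 listed were at 0 in every library, all of them gasdermins of the Gsdma and Gsdmc families. Gsdme, another gasdermin, was listed at 2 or less throughout. Ninj1, which encodes the protein that ruptures the membrane after pore formation, fell from 35.0 ± 8.11 to 21.2 ± 0.261 (difference -0.67 ± 0.16, adjusted p = 0.0104, or 0.36 with no library factors). Panx1, a membrane channel gene, stood at 24.0 ± 2.94 and 19.2 ± 2.16 (adjusted p = 0.0845).

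Of the other cytokine and receptor genes, 2 were tested, and both were higher in cCLP over the 6 libraries. Il18r1, which encodes the ligand-binding chain of the interleukin-18 receptor, was listed at 9, 50, 4 and 6 for ex vivo CLP 1 to 4 and at 7, 47, 44 and 57 for cCLP 1 to 4. Il18rap, which encodes its accessory chain, was listed at 31, 61, 16 and 27 and at 27, 71, 64 and 86. Both receptor chains were high in the 4 libraries in which Il18 was listed at 1 or 0. Their 6-library differences were 2.71 ± 0.29 (adjusted p = 0.000298) for Il18r1 and 1.46 ± 0.25 (adjusted p = 0.00279) for Il18rap. Because Il18r1 passed the filter mainly through cCLP, its direction was largely set by the filter.

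Il1r1, which encodes the signalling receptor of interleukin-1, was listed at 12, 0, 6 and 16 for ex vivo CLP 1 to 4 and at 15, 0, 0 and 0 for cCLP 1 to 4, above 0 in the libraries with Casp1. Il1r2, which encodes the decoy receptor, was listed at 5, 5, 18 and 32 and at 8, 6, 7 and 10, highest in ex vivo CLP 3 and 4 as Nlrp3 was. Il1rap, which encodes the shared accessory chain of the interleukin-1 receptors, was listed at 2 to 4, and Il18bp, which encodes a soluble inhibitor of interleukin-18, at 1 or 2. Il33, a cytokine of the interleukin-1 family, had the opposite arrangement, with 0, 15, 0 and 0 for ex vivo CLP 1 to 4 and 0, 8, 7 and 12 for cCLP 1 to 4. Il1a and Il1rn were listed at 0 in every library. None of these 7 genes passed the filter in the 6 libraries.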

How the data were processed

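Total RNA was sequenced in 8 libraries, 4 per group, with paired reads of 75 nt from 100 ng of RNA after depletion of ribosomal RNA, per the labels' protocols. TopHat2, Bowtie2 and HTSeq with GRCm38 (mm10) are named in the submitters' processing notes, with no role given. The authors deposited 1 whole number per gene, treated here as a score because its scale is named in no label. The dispersion index between replicates (0.54 over 6896 genes of ex vivo CLP 3 and 4, 0.26 over 6793 genes of cCLP 3 and 4, where simulated Poisson counts gave 1.03 and 0.99) lay below that of counts, so no count model was used, and the depth is unknown.

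Groups came from the labels. Symbols and positions came from GENCODE vM21 (37607 of 39179 identifiers matched, and the rest held 0.31% of the values). No pair of the 28 pairs of libraries was identical (0 pairs). Values were scaled by the trimmed mean of log ratios, trimming 30% by ratio and 5% by level. Genes with a scaled value of 10 or more in at least 4 libraries (3 for the 6-library comparison) were tested. For these, limma 3.58.1 was used to model log2(scaled value + 1) by group in R 4.3.3, with a trend and robust moderation. The model was checked on simulated data that held no genes near 0 and no libraries going against their labels. That check therefore does not cover these 2 features of the real libraries. Tests were two-sided, with Benjamini-Hochberg adjustment over all genes tested, and an adjusted p below 0.05 was called. Other steps used Python 3.11.15, NumPy 2.4.6, pandas 2.3.3 and matplotlib 3.10.9.

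The members, the pathway list, the marker lists and the 6-library comparison were chosen with earlier results of these data known. Named were the members, every tested pathway gene that was called, the highest uncalled gene of each pathway group, and for each member that reached 10 in at least 3 libraries the 3 genes with the most similar profile. Pathway genes that were not tested, the neighbours and the overlapping genes were named after their values were seen. Card8 and Gbp5 of the pathway list were not matched, and a few other genes of the pathway are not reported here. Alternatives were other scalings, pseudocounts and filters, protein-coding genes only, the replicate number as a block, and each library left out in turn. Bases before start sites came from RefSeq (GRCm38.p6), where 8 of the 9 members had an entry.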

Additional observations from a re-analysis of the deposited data

Results flagged for a closer look

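In 18 of 53 groups of 4 libraries, 1 library lay far from the other 3, where chance gives about 1 in 20 such groups for genes chosen without regard to their values. That rate does not apply here, since these genes were chosen from comparisons that such libraries shape. The library was cCLP 1 in 13 of them and ex vivo CLP 2 in 5, the same pair that went against their labels across the transcriptome. Among the inflammasome genes, the scaled value of cCLP 1 stood apart for Casp1 (52.5), Casp4 (5.73), Nlrp3 (7.64), Nlrc4 (4.78) and Il18 (8.6), each above the other 3 cCLP libraries. Ex vivo CLP 2 stood apart for Casp4 (0.0), below the other 3 of its group.

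Among the other pathway genes, cCLP 1 stood above the rest of its group for Ninj1 (34.4), Txnip (160), Gbp2 (14.3), Gbp3 (36.3), Gbp7 (18.1), Irf1 (85), Irf8 (146) and Trim30a (40.1). Ex vivo CLP 2 stood above the rest of its group for Nlrp1a (15.4), Serpinb1a (217) and Il18r1 (55.1), and below it for Gbp3 (1.1). In each case the value of the library that stood apart lay nearer to the other labelled group.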

How the results depend on the processing

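Over the 8 libraries as labelled, limma called 0 genes higher and 0 lower in cCLP, in the pathway list as in all genes, and this held under all 18 alternatives, the replicate number as a block included. Dpp9, at -0.101 as labelled, changed sign with no library factors (0.027) and without ex vivo CLP 4 (0.012, the highest with 1 library left out, the lowest being -0.257 without ex vivo CLP 2), and was not called in any case. Over the 6 libraries, 1352 genes were called higher and 1447 lower. These counts became 479 and 438 with no library factors, and 2215 and 2778 with no filter on low values. Leaving out 1 library gave 852 to 1579 higher, the fewest without cCLP 4, and 1204 to 1685 lower. With the replicate number as a block they were 1245 and 1249, and Dpp8, Ripk3 and Cflar were not called. Among the 6 libraries numbers 1 and 2 hold 1 library each, so the block fit took its differences from numbers 3 and 4 alone. Its counts are therefore not a check over all 6 libraries. Of the pathway list, 7 were called higher and 11 lower. The 7 became 4 with factors from totals, 3 with no factors, 5 with the replicate block and 4 to 7 with 1 library left out. The 11 became 5 with no factors and 18 with no filter, and ranged from 10 to 12 with 1 library left out. With no filter more genes are tested by construction, and the cause of the other shifts was not tested. With no factors the median difference of all tested genes moved to 0.132 over the 6 libraries and 0.14 over the 8. The deviations of same-numbered libraries from their group means correlated at 0.596, 0.843, -0.573 and -0.859 for numbers 1 to 4. Those means were of the labelled groups, with ex vivo CLP 2 and cCLP 1 included, and that pair alone sets these signs. Nothing about pairing is therefore read from the correlations. No label says that a number marks a shared animal or culture, so the libraries share only a number. The calls of Ninj1, Txnip, Serpinb1a and Gbp7 ended only with no factors. Differences of members near 0 depend on the pseudocount, and that of Casp1 over the 6 libraries was -3.60 with a pseudocount of 5 and -6.81 with 0.5. Depth is unknown, so values of 0 set no limit on expression.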
